A study of Mus musculus with 10 samples.

Results

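Adenylyl cyclases make cyclic AMP (cAMP) and phosphodiesterases break it and cyclic GMP (cGMP) down. Their genes were taken as every gene row whose symbol is Adcy followed by a number, or Pde followed by a number and any lower-case letters. This gave 36 of 32531 gene rows, 10 named Adcy and 26 named Pde. RNA bound to tagged ribosomes was measured in the medial habenula of adult BAC transgenic Chat-TRAP mice of the line DW167. These mice carry the ribosomal protein Rpl10a fused to EGFP under control of the gene for choline acetyltransferase, Chat. Left and right sides were dissected and homogenised apart, and the tagged ribosomes with their RNA were captured on beads through EGFP. Each side gave 5 libraries, every one a pull-down from this line, and no treatment, age beyond adulthood or sex is named. Since Chat drives the tag, the tagged cells of this tissue are its cholinergic neurons, and RNA of other cells can enter as background. The labels do not say whether libraries came from separate animals, so p-values measure the spread between these libraries, which may be partly technical.

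The membrane-bound cyclases are switched on by receptors coupled to the stimulatory G protein and most are restrained by the inhibitory one. They differ in their response to calcium. Some are stimulated by calcium with calmodulin, others are inhibited by calcium, and 1 member, Adcy10, is a soluble enzyme driven by bicarbonate. The phosphodiesterases fall into families that prefer cAMP, prefer cGMP or cut both. Neurons of the ventral medial habenula release acetylcholine and glutamate in the interpeduncular nucleus, and their GABA-B receptors, which couple to the inhibitory G protein, are known for boosting rather than reducing release there.

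Each library held 42488448 to 67942836 reads on gene rows, and levels are given as CPM, the count of a gene scaled to a library total of 1000000 such reads. Mean levels reached at least 1 CPM for 28 of the 36 members and at least 10 CPM for 19. Chat stood between 84.5 and 196 CPM and the nicotinic subunit gene Chrnb4 between 622 and 1266 CPM, so markers of the labelled tissue were present in all libraries. RNA of other cells was present too and differed by replicate number. The 15 astrocyte markers summed to 125 to 137 CPM in replicates 1 and 5 and 507 to 2159.6 CPM in replicates 2 to 4, with none at 0 in any library. The 12 oligodendrocyte markers summed to 103 to 115 CPM in replicates 1 and 5 and 414 to 1703 CPM in replicates 2 to 4, and the 10 thalamic neuron markers to 821 to 856 CPM in replicates 1 and 5 and 1418 to 3010.5 CPM in replicates 2 to 4. The 10 medial habenula markers ran the other way, at 10218 to 10673 CPM in replicates 1 and 5 and 5034 to 8771 CPM in replicates 2 to 4. Genes of the thalamic list, such as Slc17a6 and Calb2, need not be confined to thalamic neurons, so its sum is not an amount of thalamic RNA. Replicates 1 and 5 of a side were also far more alike than other pairs. Over genes with 100 to 500 reads summed over a pair of libraries, the chi-square statistic per gene was 2.14 for the left pair and 1.29 for the right pair, against 4.35 to 49.7 for other pairs, where 1 would be counting noise. Both pairs still differed by more than counting noise (right pair, chi-square p = 2.60e-19), which does not show whether they came from separate RNA. All 10 were kept as libraries. The side test was repeated with replicates 1 and 5 of each side summed and with replicates 2 to 4 alone. Left and right libraries of replicates 2 to 5 shared a sequencing lane by number and those of replicate 1 did not. In bulk RNA, fewer cells of a type and less RNA per cell cannot be told apart.

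Promoter windows of 4 members show the letters at their starts. RefSeq windows of GRCm38.p6, from 250 bases before to 50 bases after an annotated start, were held for 27 of the 36 members, as 52 windows. Adcy6, Adcy8, Pde3a, Pde3b, Pde6a, Pde6c, Pde6g, Pde7a and Pde9a had no entry. The cAMP response element, the site at which CREB binds, was searched as TGACGTCA, which reads alike on both strands, and as the short form TGACG on either strand. Each full element also holds the short form on both strands, overlapping. The full element was in 0 of the 52 windows and in 1.79% of all 32851 windows. The short form was in 9 of the 52, or 17.3%, and in 20.8% of all windows. The members with the short form were Adcy7, Adcy9, Pde1a, Pde2a, Pde4a, Pde4b, Pde6h, Pde8a and Pde8b. A match is a run of letters and no evidence of binding. Gene counts do not show which start was used. The windows below are of the most abundant phosphodiesterases, Pde2a and Pde1a, of Pde8a, the most variable of the tested members, and of Adcy1, the most variable of the 3 most abundant cyclases. For Pde2a and Pde1a the window that holds the short form was chosen. Capitals mark TGACG or its reverse complement CGTCA, and the Adcy1 window has neither.
Pde2a promoter window (chr7:101450270-101450569, plus strand): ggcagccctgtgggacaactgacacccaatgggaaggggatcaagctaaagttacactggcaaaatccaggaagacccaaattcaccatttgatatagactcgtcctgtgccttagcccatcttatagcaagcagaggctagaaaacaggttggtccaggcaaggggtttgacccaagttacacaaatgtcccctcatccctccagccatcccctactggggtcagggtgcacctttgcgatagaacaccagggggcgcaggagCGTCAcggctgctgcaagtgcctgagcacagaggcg
Pde1a promoter window (chr2:80038853-80039152, minus strand): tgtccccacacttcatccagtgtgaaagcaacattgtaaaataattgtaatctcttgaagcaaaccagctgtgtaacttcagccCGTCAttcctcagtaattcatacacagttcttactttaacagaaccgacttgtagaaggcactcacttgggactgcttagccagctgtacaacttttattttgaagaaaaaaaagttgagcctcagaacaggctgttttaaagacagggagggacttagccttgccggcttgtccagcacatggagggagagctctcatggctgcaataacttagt
Pde8a promoter window (chr7:81213015-81213314, plus strand): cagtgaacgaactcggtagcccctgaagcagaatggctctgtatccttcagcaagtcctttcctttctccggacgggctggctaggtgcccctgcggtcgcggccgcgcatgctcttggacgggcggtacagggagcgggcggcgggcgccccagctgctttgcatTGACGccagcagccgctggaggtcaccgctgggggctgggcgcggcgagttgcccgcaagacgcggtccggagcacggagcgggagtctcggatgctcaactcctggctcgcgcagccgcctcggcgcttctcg
Adcy1 promoter window (chr11:7063183-7063482, plus strand): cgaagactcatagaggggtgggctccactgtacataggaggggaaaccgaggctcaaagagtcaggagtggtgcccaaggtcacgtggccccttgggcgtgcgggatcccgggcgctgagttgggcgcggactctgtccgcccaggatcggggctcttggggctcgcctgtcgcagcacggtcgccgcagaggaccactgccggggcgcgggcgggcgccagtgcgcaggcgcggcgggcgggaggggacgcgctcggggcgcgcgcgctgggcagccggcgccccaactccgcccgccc

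Among cyclases stimulated by calcium, Adcy8 stood at a near constant level while Adcy1 was not. Adcy8 stood at 78.6, 93.7, 71.6, 80.1 and 77.4 CPM in left replicates 1 to 5 and at 77.4, 83.6, 74.8, 76.0 and 76.1 CPM in right replicates 1 to 5. All values lay within a 1.31-fold range, the highest was left replicate 2, and the sides overlapped. Adcy1 stood at 34.0, 142, 178, 256 and 30.3 CPM in left replicates 1 to 5 and at 26.7, 79.7, 242, 192 and 24.8 CPM in right replicates 1 to 5. Replicates 1 and 5 of both sides were low, at 24.8 to 34.0 CPM, right replicate 2 was next, and the remaining 5 libraries lay between 142 and 256 CPM. Adcy1, which is abundant in the thalamus, thus ranged 10.3-fold. Of the markers of thalamic neurons, Prkcd ranged from 13.4 to 298 CPM and Rora from 137 to 841 CPM. The sum of all 10 thalamic markers rose less steeply than either, from 821 to 856 CPM in replicates 1 and 5 to 1418 to 3010.5 CPM in the other libraries. Prkcd and Rora therefore do not stand for the whole list. The part of thalamic or glial RNA in the Adcy1 values was not tested. Adcy3, the cyclase of olfactory transduction and of neuronal cilia, ranged from 7.18 to 14.6 CPM (mean 10.8). It shares 22.1% of its exonic bases with Cenpo on the opposite strand, which had 108 to 332 reads. No source used here gives the strand setting of the counting, so its level is uncertain. The overlap does not give the size of that uncertainty.

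The other tested cyclases were, like Adcy1, lower in replicates 1 and 5 than in the other 6 libraries. Adcy9 stood at 33.6, 44.7, 53.2, 55.9 and 31.2 CPM in left replicates 1 to 5 and at 34.4, 35.2, 61.5, 49.5 and 29.6 CPM in right replicates 1 to 5. Adcy9, a widely expressed cyclase that responds poorly to forskolin, was lower in replicates 1 and 5 than in the other 6 libraries, and right replicate 2 exceeded right replicate 1 by less than 1 CPM. Adcy2 stood at 11.7, 18.4, 20.8, 25.1 and 10.9 CPM in left replicates 1 to 5 and at 14.1, 19.0, 22.5, 19.5 and 13.9 CPM in right replicates 1 to 5. Adcy2 is stimulated by βγ subunits of G proteins and had its lowest values in left replicates 1 and 5. Adcy7 stood at 0.320, 3.30, 4.14, 4.16 and 0.361 CPM in left replicates 1 to 5 and at 0.432, 1.61, 5.82, 5.27 and 0.294 CPM in right replicates 1 to 5. Adcy7, a relative of Adcy2 known from blood and immune cells, ranged 19.8-fold, with 19 to 384 reads, and its 4 lowest values were replicates 1 and 5. Microglia markers summed to 7.18 to 8.97 CPM in replicates 1 and 5 and 15.8 to 40.9 CPM in replicates 2 to 4, and their part in the Adcy7 values was not tested. Adcy5 and Adcy6, the cyclases inhibited by calcium, ranged from 3.41 to 43.5 CPM (mean 20.4) and from 2.93 to 13.1 CPM (mean 7.48). Adcy4 had 0 reads in left and right replicate 5, and at most 54 reads. A count of 0 allows up to 3 reads, or 0.0442 to 0.0706 CPM depending on the library, for counting error only. Adcy10 had 2 to 34 reads (mean 0.224 CPM).

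Levels of different genes were compared only per kilobase of exon, the CPM divided by the length of all annotated exons of the gene. On this scale Adcy8 stood at 9.68 ± 0.746, Adcy1 at 9.63 ± 7.40, Adcy9 at 8.25 ± 2.22 and Adcy2 at 4.17 ± 1.13 CPM per kilobase (mean ± SD, n = 10 libraries). Adcy8 exceeded Adcy1 in 6 of 10 libraries and Adcy1 exceeded Adcy9 in 5, so the order of these 3 was not settled, while Adcy9 exceeded Adcy2 in 10 of 10. The ratio of Adcy8 to Adcy1 per kilobase was 3.55 to 4.72 in replicates 1 and 5 and 0.475 to 1.61 in the other 6 libraries. Of the summed level of the 10 cyclases, Adcy8 took 39.5% to 41.8% in replicates 1 and 5 and 16.1% to 31.3% in the other 6. Adcy1 took 8.68% to 11.5% and 19.4% to 35.8%. The calcium-stimulated Adcy1, Adcy3 and Adcy8 together took 56.5% ± 1.75 on the left and 55.0% ± 1.01 on the right (SD, n = 5). Their joint share moved little, at 53.4% to 57.6% over all libraries. The sum of the 10 cyclases was 22.7 to 24.1 CPM per kilobase in replicates 1 and 5 and 32.7 to 57.1 in the other 6. Adcy8 itself stayed at 8.79 to 11.5 CPM per kilobase, so its share fell as the sum rose. Shares within a library add to a fixed sum, so one cannot rise without another falling.

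**Figure D1:**
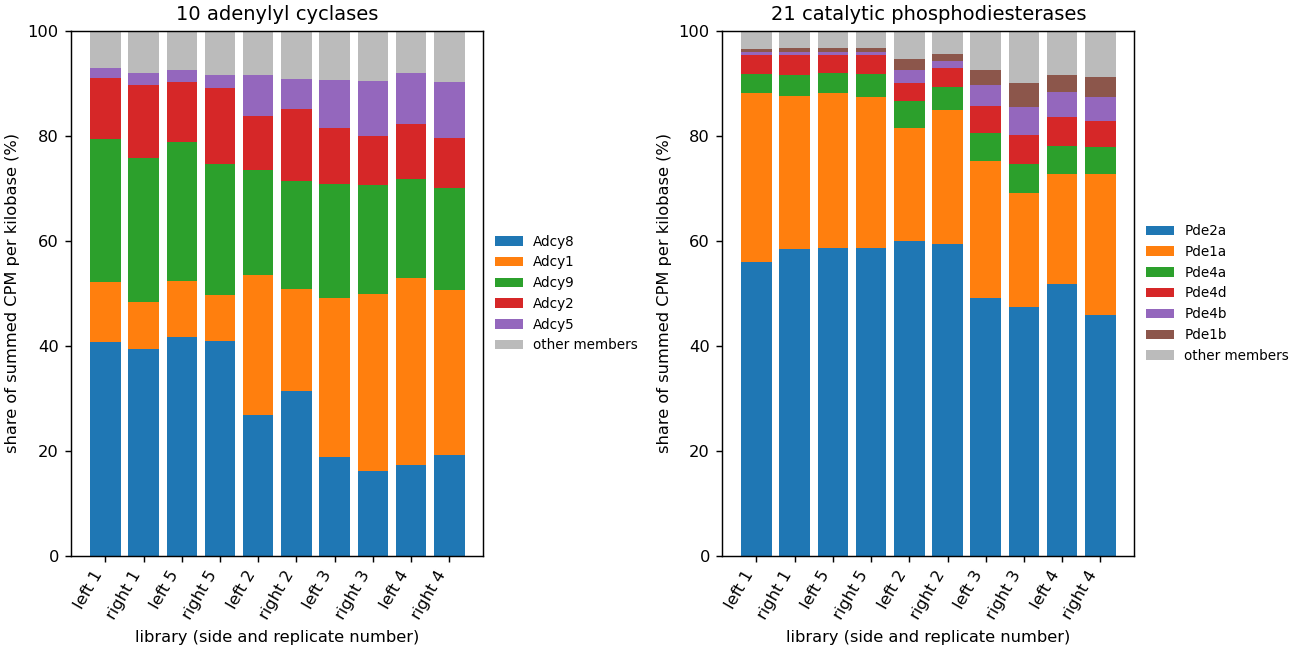
Share of the summed CPM per kilobase of exon (%, vertical axis) held by single genes in each library (horizontal axis, replicates 1 and 5 first), for the 10 adenylyl cyclases and the 21 catalytic phosphodiesterases. Adcy8 takes 39.5% to 41.8% of the cyclase sum in the 4 libraries at the left of the panel and at most 31.3% in the others; Pde2a and Pde1a hold most of the phosphodiesterase sum in all 10.

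Pde2a and Pde1a, enzymes that cut both cAMP and cGMP, were the most abundant of the phosphodiesterases. Pde2a is activated by cGMP, and Pde1a by calcium with calmodulin. Pde2a stood at 1448, 1401, 1021, 1134 and 1448 CPM in left replicates 1 to 5 and at 1517, 1558, 886, 857 and 1463 CPM in right replicates 1 to 5. The lowest values were right replicates 3 and 4, the highest was right replicate 2, and replicates 1 and 5 lay within 1448 to 1517 CPM. Pde1a stood at 817, 487, 531, 451 and 712 CPM in left replicates 1 to 5 and at 737, 659, 397, 492 and 702 CPM in right replicates 1 to 5. All 4 libraries of replicates 1 and 5 exceeded the other 6, which reached 659 CPM. Per kilobase of exon Pde2a stood at 207 ± 44.0 and Pde1a at 99.5 ± 23.9 CPM (n = 10), and Pde2a exceeded Pde1a in 10 of 10 libraries, by 1.70 to 2.81 times. Pde1a exceeded every other member but Pde2a in 10 of 10. Of the summed level of the 21 catalytic phosphodiesterases Pde2a took 45.9% to 60.1% and Pde1a 21.1% to 32.3%. Pde2a lies at chr7:101421691-101512827, plus strand, and Pde1a at chr2:79834453-80129458, minus strand (GRCm38). In GENCODE M21 Pde2a shares 64.3% of its exonic bases with Gm45837 on the same strand, which had no row of its own in the count files.

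The remaining dual-specificity enzymes were lower, and most were lowest in replicates 1 and 5. Pde1b stood at 13.6, 40.5, 53.2, 62.3 and 13.6 CPM in left replicates 1 to 5 and at 18.9, 30.2, 76.2, 64.6 and 17.4 CPM in right replicates 1 to 5. Pde1c stood at 0.658, 3.01, 5.73, 6.85 and 0.451 CPM in left replicates 1 to 5 and at 1.42, 1.61, 8.54, 7.37 and 1.32 CPM in right replicates 1 to 5. Both are calcium-stimulated relatives of Pde1a, but they ran opposite to it: every value of replicates 1 and 5 lay below the other 6 libraries. Pde1c ranged 18.9-fold, on 25 to 564 reads. Pde10a, best known as a striatal enzyme, ranged from 35.1 to 104 CPM (mean 63.4) with the same order. Pde11a ranged from 5.85 to 13.5 CPM (mean 9.60) and behaved like Pde1a, with replicates 1 and 5 at 11.8 to 13.5 CPM and the others at 5.85 to 10.8 CPM. Of the cGMP-inhibited enzymes, Pde3a ranged from 0.971 to 5.14 CPM (mean 2.82) and Pde3b, the form of fat and liver, from 4.79 to 7.69 CPM (mean 5.89). Enzymes that cut both nucleotides together took 85.2% ± 5.28 of the catalytic sum on the left and 84.9% ± 6.02 on the right (SD, n = 5). By replicate number their share was 89.6% to 90.5% in replicates 1 and 5 and 76.9% to 88.1% in replicates 2 to 4.

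Among enzymes specific for cAMP, 2 members of the Pde4 family were steady and another was not. Pde4a stood at 115, 149.8, 139, 143 and 122 CPM in left replicates 1 to 5 and at 134, 141, 129.7, 118 and 134 CPM in right replicates 1 to 5. Pde4d stood at 181, 163, 208, 236 and 166 CPM in left replicates 1 to 5 and at 187, 180.2, 205, 184 and 178 CPM in right replicates 1 to 5. Pde4a and Pde4d, targets of rolipram, ranged only 1.30-fold and 1.45-fold, and libraries of either side and any replicate number overlapped. Pde4b stood at 25.2, 97.2, 144, 181 and 23.1 CPM in left replicates 1 to 5 and at 27.9, 63.0, 169, 143 and 26.6 CPM in right replicates 1 to 5. Pde4b, also a rolipram target, ranged 7.84-fold, with replicates 1 and 5 at 23.1 to 27.9 CPM. Pde8a stood at 1.30, 5.73, 9.06, 14.1 and 0.848 CPM in left replicates 1 to 5 and at 0.804, 3.91, 12.2, 9.04 and 0.589 CPM in right replicates 1 to 5. Pde8a, an enzyme of high affinity for cAMP, had the widest range of any member with a mean of at least 1 CPM, 23.9-fold, on 40 to 925 reads. Its relative Pde8b ranged only from 27.5 to 48.6 CPM (mean 36.4). Pde7a and Pde7b ranged from 9.33 to 16.1 CPM (mean 12.4) and from 3.93 to 52.1 CPM (mean 25.2), and Pde4c had at most 18 reads. The class took 14.5% ± 5.06 of the catalytic sum on the left and 14.7% ± 5.59 on the right. By replicate number its share was 9.48% to 10.3% in replicates 1 and 5 and 11.7% to 22.2% in replicates 2 to 4. Per kilobase of exon Pde4a exceeded Pde4dip, and that gene Pde4d, in 6 of 10 libraries each, so their order was not settled. It also depended on the length used: Pde4d has many short isoforms, and per kilobase of its longest transcript it stood at 44.9 CPM, above Pde4a at 28.5 CPM. Shares of the catalytic sum were computed on the length of all exons only, so they too depend on the length used.

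Enzymes specific for cGMP were scarce. Pde9a, of high affinity for cGMP, ranged from 0.379 to 6.59 CPM (mean 3.04) and Pde5a, the target of sildenafil, from 0.472 to 6.76 CPM (mean 2.34). The photoreceptor enzymes Pde6a, Pde6b and Pde6c had at most 23, 24 and 46 reads in any library. Pde6b had 0 reads in left replicates 1 and 5, and Pde6c in left replicate 5 and right replicates 1 and 5. The highest Pde6c value, 1.08 CPM, was in right replicate 4. The 8 pineal markers summed to 93.6 to 102 CPM in replicates 1 and 5 and 53.4 to 87.9 CPM in replicates 2 to 4. A sum does not show how single markers varied. Of the 8, 4 were tested between sides, and 1 had a log2 fold change above 0. The median log2 fold change, left over right, was -1.37, and edgeR called 0 of them. Aanat, Asmt, Tph1, Crx and Lhx4 were at 0 in at least 1 library. Tph1 alone of these markers is given by library, at 3.91 CPM in right replicate 4 and at most at 1.71 CPM elsewhere. The part of pineal RNA in these values was not tested. Enzymes specific for cGMP took 0.0465% to 0.0680% of the catalytic sum in replicates 1 and 5 and 0.201% to 0.898% in replicates 2 to 4.

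Matching by symbol also took in 5 genes that are not catalytic or do not cut cyclic nucleotides. Pde6d is a chaperone that carries prenylated proteins, Pde4dip is myomegalin, a scaffold of the Golgi and centrosome, and Pde12 cuts 2',5'-linked oligoadenylate and poly(A) tails. Pde6d stood at 76.5, 66.5, 50.2, 42.3 and 76.5 CPM in left replicates 1 to 5 and at 74.4, 70.2, 43.7, 51.4 and 73.6 CPM in right replicates 1 to 5. Its values in replicates 1 and 5, at 73.6 to 76.5 CPM, exceeded those in the other 6 libraries, as for Pde1a. Pde4dip stood at 248, 243, 328, 364 and 233 CPM in left replicates 1 to 5 and at 233, 262, 357, 285 and 226 CPM in right replicates 1 to 5. Pde12 stood at 17.3, 23.0, 22.3, 25.0 and 18.2 CPM in left replicates 1 to 5 and at 18.3, 22.4, 24.9, 21.7 and 16.8 CPM in right replicates 1 to 5. Pde12 was lowest in replicates 1 and 5 and Pde4dip overlapped, with left replicate 2 below left replicate 1. Pde12 shares 7.62% of its exonic bases with other genes, chiefly Arf4 on the opposite strand. Pde6g and Pde6h, inhibitory subunits of the photoreceptor enzymes, had at most 47 and 5 reads.

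**Figure D2:**
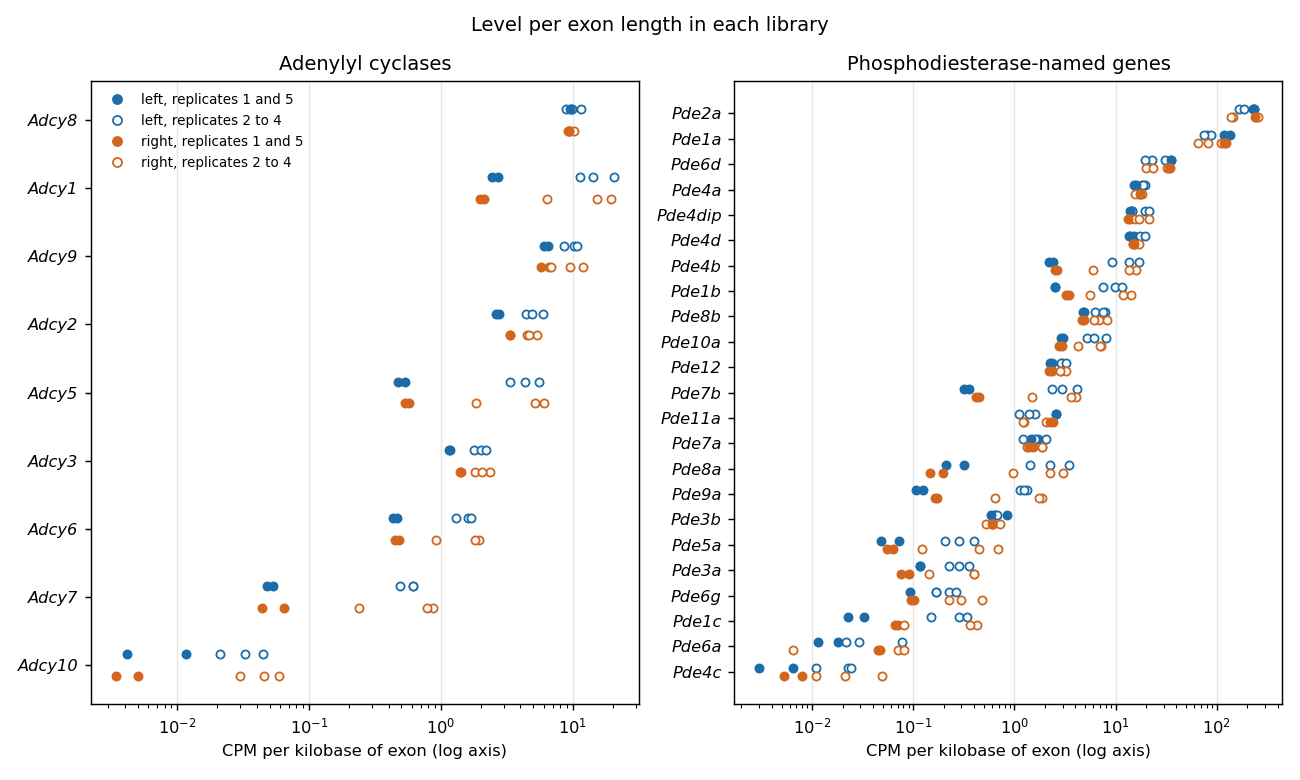
CPM per kilobase of exon (log axis) of each gene in each of the 10 libraries, ordered by mean, with cyclases on the left and Pde-named genes on the right. Blue points are left and orange points right libraries; filled points are replicates 1 and 5 and open points replicates 2 to 4. Adcy4, Pde6b, Pde6c and Pde6h are not drawn because at least 1 library had 0 reads. Filled points sit left of open ones for most genes, and right of them for Pde1a, Pde11a and Pde6d.

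The comparison of the sides asked whether any of these genes differs between the left and right medial habenula. No member was called. Of the 36, 31 had enough reads for the test, and the edgeR quasi-likelihood test with Benjamini-Hochberg adjustment over 16250 genes called 0 of them, where it called 0.0% of all genes tested. At an unadjusted p under 0.05 there were 0 members and 90 genes in all (0.554%), where 812 genes are 5% of those tested. The smallest unadjusted p among members was 0.342, for Pde6a, with an adjusted p of 1 in the same edgeR fit. DESeq2 called 0 members, with 1 of 36 at an unadjusted p under 0.05 (Pde6c), beside 1.14% of 23868 genes. Limma-voom with sample weights called 0, with 7 of 31 at an unadjusted p under 0.05, beside 14.8% of all genes tested. In 0 of the 31 did the CPM of the sides fail to overlap, against 0.215% of all genes tested.

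Adcy8 averaged 80.3 ± 8.15 (left) and 77.6 ± 3.51 CPM (right), a log2 fold change of 0.027 with a 95% interval of -0.17 to 0.22. Adcy1 averaged 128 ± 96.7 (left) and 113 ± 99.0 CPM (right), a log2 fold change of 0.13 with a 95% interval of -1.61 to 1.87. The interval of Adcy1 was the wider, and its values, unlike those of Adcy8, differed by replicate number. Pde2a averaged 1290.3 ± 199 (left) and 1256 ± 353 CPM (right), a log2 fold change of 0.025 with a 95% interval of -0.40 to 0.45. Pde1a averaged 599.6 ± 158 (left) and 597 ± 147 CPM (right), a log2 fold change of -0.011 with a 95% interval of -0.49 to 0.47. Pde4a averaged 134 ± 14.5 (left) and 131 ± 8.49 CPM (right), a log2 fold change of 0.0022 with a 95% interval of -0.20 to 0.21. For these 3 phosphodiesterases the intervals stayed within -0.5 and 0.5 on the log2 scale. Pde4d averaged 191 ± 30.9 (left) and 187 ± 10.9 CPM (right), a log2 fold change of 0.0058 with a 95% interval of -0.26 to 0.27. Adcy9 averaged 43.7 ± 11.2 (left) and 42.1 ± 13.1 CPM (right), a log2 fold change of 0.025 with a 95% interval of -0.52 to 0.57. Adcy2 averaged 17.4 ± 6.07 (left) and 17.8 ± 3.70 CPM (right), a log2 fold change of -0.061 with a 95% interval of -0.62 to 0.50. All 3 had overlapping sides. Pde4b averaged 94.0 ± 70.4 (left) and 85.9 ± 66.3 CPM (right), a log2 fold change of 0.085 with a 95% interval of -1.50 to 1.67. Pde1b averaged 36.7 ± 22.4 (left) and 41.5 ± 27.2 CPM (right), a log2 fold change of -0.22 with a 95% interval of -1.48 to 1.04. Pde8a averaged 6.21 ± 5.55 (left) and 5.31 ± 5.15 CPM (right), a log2 fold change of 0.18 with a 95% interval of -1.93 to 2.29. For these 3 the intervals of this fit, with side as its only term, reached past -1 and 1. Pde1c averaged 3.34 ± 2.90 (left) and 4.05 ± 3.59 CPM (right), a log2 fold change of -0.33 with a 95% interval of -2.20 to 1.54. Adcy7 averaged 2.45 ± 1.96 (left) and 2.69 ± 2.67 CPM (right), a log2 fold change of -0.18 with a 95% interval of -2.34 to 1.98. In both, all 4 values of replicates 1 and 5 lay below the other 6, with 2 on each side. Pde6d averaged 62.4 ± 15.6 (left) and 62.7 ± 14.2 CPM (right), a log2 fold change of -0.022 with a 95% interval of -0.48 to 0.44. Pde4dip averaged 283 ± 59.0 (left) and 273 ± 52.9 CPM (right), a log2 fold change of 0.027 with a 95% interval of -0.36 to 0.42. Pde12 averaged 21.2 ± 3.27 (left) and 20.8 ± 3.26 CPM (right), a log2 fold change of -0.0018 with a 95% interval of -0.33 to 0.33. Fitted log2 fold changes of the 31 lay between -0.68 and 0.18, with a median of -0.022 beside -0.0097 over all genes tested, and 12 were above 0 (38.7%, beside 46.3% of all genes). This median was not stable: it was 0.37 under limma-voom with sample weights (all genes -0.012), -0.26 without left replicate 4 and 0.13 without right replicate 3. The 95% interval lay between -1 and 1 for 16 of the 31. The median distance from the estimate to an end of the interval was 0.833, and 0.522 over all genes tested.

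**Figure D3:**
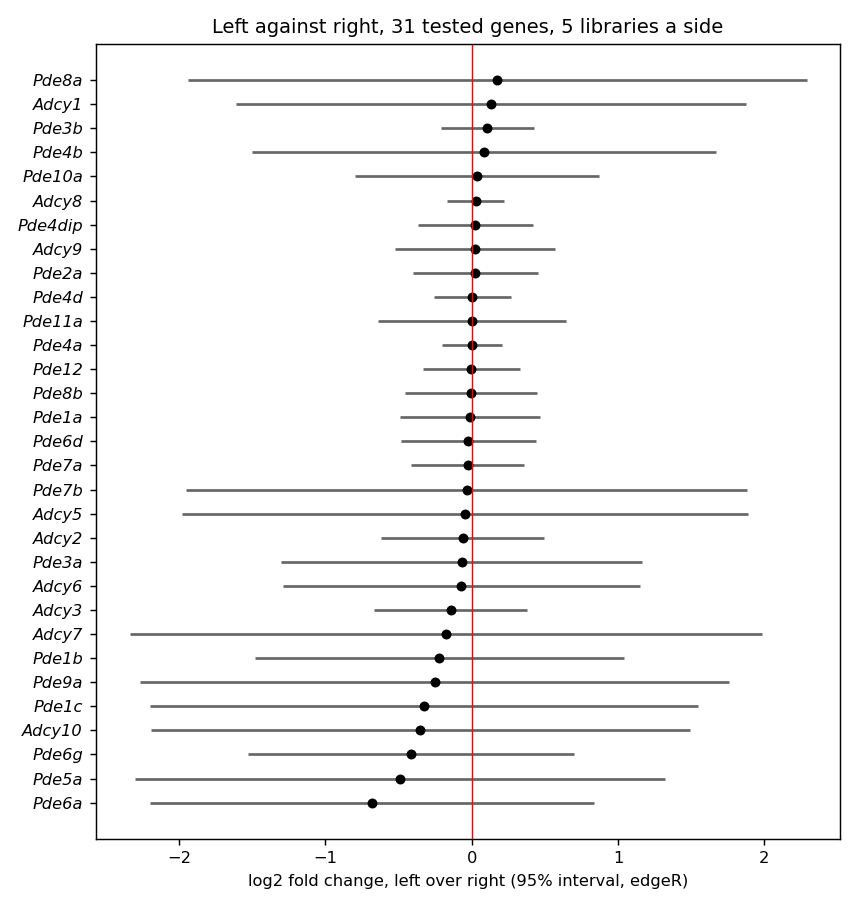
Fitted log2 fold change, left over right (points), with its 95% interval (bars) from edgeR for the 31 tested genes, 5 libraries a side. All intervals include 0; the narrowest are those of Adcy8 and Pde4a, and the widest are those of genes that varied most by replicate number, such as Adcy7 and Pde8a.

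With a glial score in the model (the mean log2 CPM of a library's glial and vascular markers), edgeR again called 0 members, with 2 of 31 at an unadjusted p under 0.05, beside 3.13% of all genes tested. The log2 fold change of Adcy1 was then 0.30 (95% interval 0.10 to 0.51) and that of Pde8a 0.36 (0.0028 to 0.71), each with an adjusted p of 0.999 in edgeR. With replicates 1 and 5 alone, edgeR called 6 of 30 members tested, beside 12.8% of 15569 genes. Adcy1 was higher on the left (log2 fold change 0.32, edgeR adjusted p = 0.0185). Adcy2, Adcy3, Pde1b, Pde1c and Pde7b were higher on the right, with the largest difference in Pde1c (-1.29, edgeR adjusted p = 0.0114). The 2 libraries of a side in that fit were more alike than any other pair, so their spread may not be that between animals. With replicates 2 to 4 alone, and with replicates 1 and 5 of each side summed, edgeR called 0 members.

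The members were also compared by replicate number, as a description with no test. Of the 31 tested members, 20 had all 4 values of replicates 1 and 5 below the other 6 libraries (64.5%, beside 24.3% of all genes tested), and 3 had all 4 above (9.68%, beside 22.9%). The 20 were every tested cyclase except Adcy8, together with Pde1b, Pde1c, Pde3a, Pde4b, Pde5a, Pde6g, Pde7b, Pde8a, Pde8b, Pde9a, Pde10a and Pde12. The 3 above were Pde1a, Pde6d and Pde11a. In Adcy8, Pde2a, Pde3b, Pde4a, Pde4d, Pde4dip, Pde6a and Pde7a the libraries overlapped. In Pde2a the overlap came from right replicate 2 alone, at 1558 CPM. Leaving out a library can only add genes to either group, so no count is given without it. The filter on low counts asked for reads in at least 5 libraries, so a gene with reads in replicates 1 and 5 alone could not pass while one with reads in the other 6 could. Among the 20, Adcy10 passed only through replicates 2 to 4. It had 2 to 6 reads in replicates 1 and 5 and 12 to 34 in the other 6, so its place below was not independent of the filter. Of the 5 members that did not pass, Adcy4, Pde4c, Pde6b and Pde6c had their lowest 4 values in replicates 1 and 5, on at most 54 reads. The share of such genes among all that did not pass was not computed, so these 4 add nothing to the count of 20.

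Sizes of these differences varied widely. Over all 10 libraries the highest value was less than 2 times the lowest in 10 of the 31 (32.3%, beside 47.2% of all genes tested). It was more than 10 times the lowest in 10, for which the share of all genes was not computed. Adcy10 and Pde6a, with at most 34 and 23 reads, were among the latter. Mean CPM in replicates 2 to 4 was 11.5 times that in replicates 1 and 5 for Adcy7, 10.2 times for Pde8a and 9.44 times for Pde9a. It was 8.29 times for Adcy5, 8.15 times for Pde7b and 6.27 times for Adcy1. It was 1.65 times for Adcy2, 1.55 for Adcy9 and 1.03 for Adcy8. In the other direction, replicates 1 and 5 stood at 1.70 times the others for Pde11a, 1.48 for Pde1a and 1.39 for Pde6d. Over the same libraries the astrocyte markers ranged 17.2-fold and Gpr151, a receptor gene of habenular axons, measured 536 to 577 CPM in replicates 1 and 5 and at most 388 CPM in the rest. The part of RNA from glia and thalamic neurons in the members' values was not tested.

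**Figure D4:**
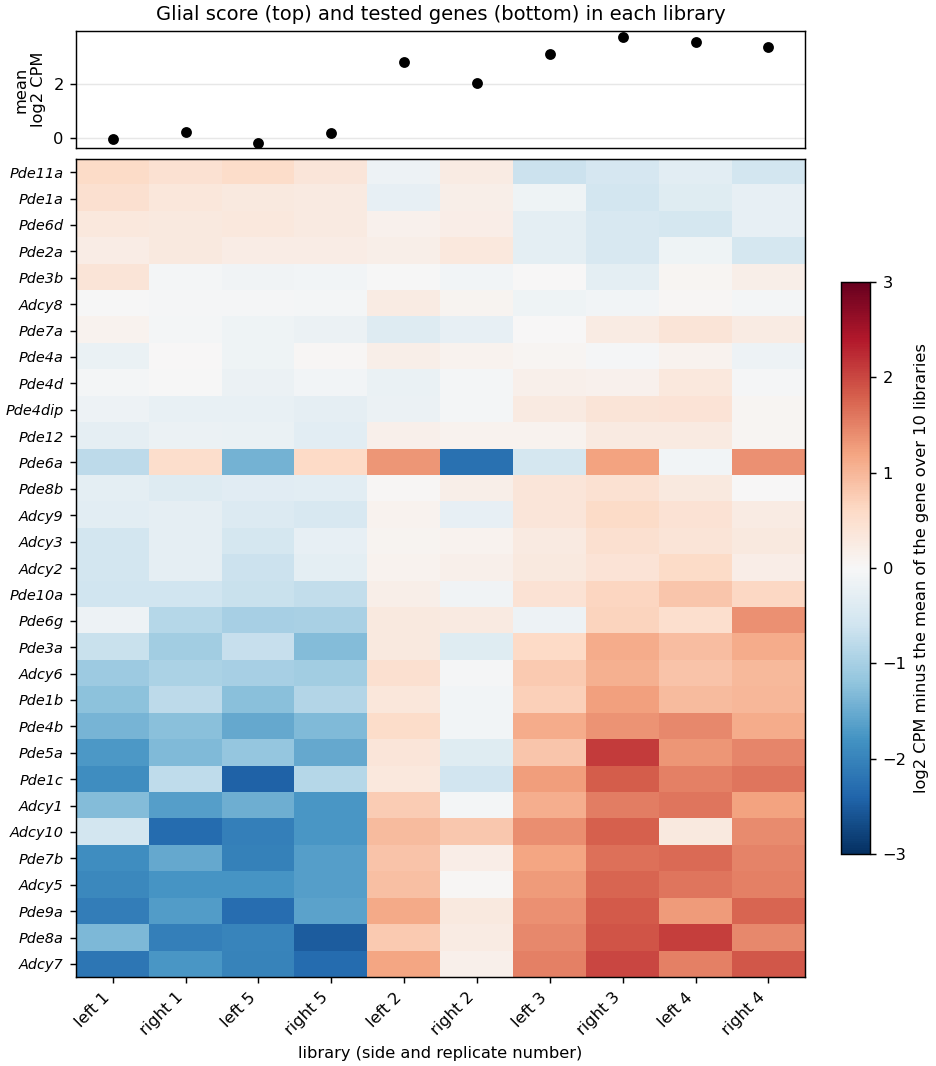
Top, the glial score of each library, the mean log2 CPM of astrocyte, oligodendrocyte, microglia and endothelial markers. Bottom, log2 CPM of the 31 tested genes minus the mean of each gene (colour, red high and blue low; values past 3 take the end colour), with replicates 1 and 5 in the first 4 columns. The score lies between -0.174 and 0.207 in those 4 and is at least 2.05 in the others; Adcy7, Pde8a and Pde9a are blue in the 4, while Pde11a, Pde1a and Pde6d are pale red.

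Other genes of the pathway, taken as 6 lists, gave no call either. Of 56 listed genes 53 had a row, 45 were tested and edgeR called 0, with 0 at an unadjusted p under 0.05 and 24 with a log2 fold change above 0. Of the 9 protein kinase A genes, which encode the main cAMP effector and its inhibitors, 4 had a log2 fold change above 0 (median log2 fold change -0.0043). Prkar1a and Prkar2a, regulatory subunits, stood at 908 ± 301 and 927 ± 140.2 CPM and at 884 ± 156 and 878 ± 210.4 CPM on the left and right. Rapgef4, the exchange factor Epac2, led 8 tested cyclic nucleotide-binding effectors (median -0.012) at 414 ± 97.8 and 402 ± 84.1 CPM, and Rapgef3, Epac1, followed at 7.86 ± 3.49 and 7.26 ± 3.39 CPM. Anchoring proteins, which tether the kinase beside its targets, had 8 of 10 tested genes above 0 with a median of 0.027. Akap9 stood at 414 ± 196 and 388 ± 163 CPM and Akap11 at 399 ± 188 and 384 ± 194 CPM. Of the 6 genes of CREB and its coactivators 2 were above 0 (median -0.042), with Creb1 at 92.3 ± 23.3 and 94.2 ± 14.1 CPM and Crtc1 at 78.2 ± 17.9 and 80.7 ± 16.2 CPM.

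Among genes that make or sense cGMP, 6 of 8 tested guanylyl cyclase genes had a log2 fold change above 0 (median 0.026). Gucy1a3 and Gucy1b3, the subunits of the nitric oxide receptor that makes cGMP, stood at 811 ± 214 and 774 ± 262 CPM and at 343 ± 90.3 and 338 ± 100.4 CPM. All 4 tested genes of the cGMP-dependent kinases and nitric oxide synthases were below 0 (median -0.15), with Prkg1 at 26.3 ± 5.36 and 31.5 ± 10.8 CPM and Nos1 at 17.2 ± 5.47 and 19.9 ± 5.13 CPM, and none was called. The summed guanylyl cyclase level was 1632 to 1683 CPM in replicates 1 and 5 and 945 to 1302 CPM in replicates 2 to 4 and so, like Pde1a, was higher in replicates 1 and 5. The protein kinase A sum was 4412 to 4829 CPM in replicates 1 and 5 and 3156 to 4145 CPM in replicates 2 to 4. Anchoring proteins summed to 761 to 873 CPM in replicates 1 and 5 and 1252 to 2133 CPM in replicates 2 to 4, a sum led by Akap9, Akap11 and Akap6; Akap2, Akap7, Akap8 and Akap10 overlapped between these libraries.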

How the data were processed

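Ribosome-bound RNA of 5 left and 5 right medial habenula libraries was sequenced. The authors deposited unnormalised read counts for each gene, with mm10, STAR 2.0.0e and HTSeq named in the submitters' processing notes. No source used here gives the annotation or the strand setting. Of 32537 rows per library, 6 name no gene and were left out of totals and tests; reads without a feature were 13.6% to 18.9% and ambiguous reads 2.25% to 2.81% of all reads assigned, ambiguous or without a feature. CPM was computed over gene rows. CPM per kilobase used the exons of GENCODE M21 (GRCm38).

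Sides were compared with the edgeR 4.0.16 quasi-likelihood test (R 4.3.3, TMM factors, filterByExpr with a minimum count of 10 in at least 5 libraries, 16250 genes, two-sided, Benjamini-Hochberg adjusted p under 0.05). Log2 fold changes are left minus right. Alternatives used DESeq2 1.42.0, limma 3.58.1 (voom), other scalings and filters, a glial covariate, a replicate block and subsets of libraries. Simulated counts with known changes were used to check the scripts. Gene totals of 42488448 to 67942836 reads limit precision only for the scarcest members, and counting floors cover counting error only.

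The members and lists were chosen with earlier results of these data known. Values of every library are given for the 4 Adcy and 8 Pde genes highest per kilobase, members with an unadjusted p under 0.05, the 3 of at least 1 CPM with the widest range, and Pde12, Pde4dip and Pde6d. Each pathway list is represented by its 2 tested genes highest in CPM.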

Additional observations from a re-analysis of the deposited data

Results flagged for a closer look

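Pde6a, the alpha subunit of the rod photoreceptor phosphodiesterase, had 1 library apart from the rest of its side. Left replicate 2 stood at 0.364 CPM, while the other 4 left libraries lay between 0.0541 and 0.137 CPM. The gap was 0.733 of the range of the side. Among 62 sets of 5 libraries examined in this way, chance was taken to flag about 1 in 20, a rate not computed from these libraries. Pde6a had at most 23 reads in any library, and the right libraries overlapped this value.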

How the results depend on the processing

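The edgeR counts of 0 members and 0 genes called between sides stayed at 0 under other scalings and filters, DESeq2, limma-voom, the glial covariate, replicates 1 and 5 summed, replicates 2 to 4 alone and each library left out in turn (lowest 0, highest 0). With replicates 1 and 5 alone, an alternative chosen after seeing the data, edgeR called 1992 genes and 6 members. Log2 fold changes changed sign without a call in 1 of 31 members under DESeq2, 18 under limma-voom, 7 under the glial covariate and 5 to 16 when a library was left out, Pde5a (-0.49 with all libraries, up to 0.21) and Pde1c (-0.33, up to 0.16) among them. With the replicate number as a block, 0 genes and 0 members were called and 7 members changed sign. Deviations of same-numbered libraries from the side means correlated at 0.0962 to 0.873, and 6 of 10 libraries correlated best with their own number. Libraries of different number could correlate as highly, at 0.848 for left replicate 1 with right replicate 5 and 0.859 for left replicate 4 with right replicate 3. The count of 6 therefore cannot show whether same-numbered libraries were paired, and the design does not say. The counts of members above and below by replicate number were 3 and 20 with TMM-scaled CPM, the same as without it. No share of all genes is given on that scale. Members with few reads, such as Adcy4 and Pde6c, were limited by depth.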
